A study of Rattus norvegicus with 56 samples.

Results

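The genes described here are Txnip and Arrdc4, which encode the glucose-regulated alpha-arrestins thioredoxin-interacting protein and arrestin domain containing 4, and their levels were followed over 48 h in cultured rat hippocampal neurons. The pair was chosen by the measured differences of their levels between times and series, as seen in earlier results of the same arrays, so that pattern is given as a description without a test. Every probe whose RefSeq accession belonged to either gene was taken, which gave 2 probes, 1 for each gene, of the 45598 probes on the array, where 16581 genes could be named. Both probes passed the filter on dim signals, as did 35707 probes standing for 13895 named genes.

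Alpha-arrestins are adaptor proteins that bring membrane proteins together with ubiquitin ligases of the NEDD4 family. Txnip binds thioredoxin and promotes the removal of glucose transporters from the cell surface, and Arrdc4, its close relative, also limits glucose uptake. Both genes are classic targets of the Mondo transcription factors, MondoA (Mlxip) and ChREBP (Mlxipl), which act with their partner Mlx and respond to phosphorylated sugars, so their transcripts are widely used as a readout of the sugar supply of a cell.

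All cultures were prepared from hippocampi of Sprague-Dawley rat embryos at embryonic day 18 and kept in Neurobasal medium with B27, and no genotype or transgene was part of the design. They received repetitive transcranial magnetic stimulation (rTMS) at 15% of the machine's output as 1 Hz stimulation, with evenly spaced pulses, or as intermittent theta burst stimulation (iTBS), with pulses in short bursts, or a sham treatment with the coil about 20 cm away, and RNA was taken 0, 2, 8, 24 or 48 h later. Untreated cultures were sampled at 0 h. The 56 one-colour Agilent arrays made 16 groups, and 1 array (1 Hz at 2 h, replicate 2) was left out because the scanner software had marked its grid as badly placed, which left 55 arrays and 2 to 4 in each group.

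The numbers in the sample descriptions form 4 series, called A, B, C and D here, and with the exception of the untreated cultures no group held more than 1 array of a series. The labels do not say what the series are, nor whether replicates came from separate preparations, so p-values measure only the spread between these samples, which may be technical. Not every group held all 4 series: 1 Hz at 2 h, for example, was measured in series C and D alone. Series A lay on slides 1 and 2, series B on slides 3 and 4 and series C on slides 5 to 7, while series D was spread over all 7 slides, and all were scanned on 1 day. In series D slide ran with time. Its arrays at 0 h lay on slides 1 and 2, at 8 h on slides 4 and 5, at 24 h on slides 5 and 6, and at 48 h on slide 7. Its differences between these later times and 0 h thus compare different slides, and slide and time cannot be told apart there. Between 66.1% and 81.8% of spots were well above background on an array. All 10 neuronal markers were well above background on every array, as were all 7 astrocyte and all 8 oligodendrocyte markers, 3 of 6 microglial markers and 0 of 4 endothelial markers, so the RNA of these neuronal cultures included glial transcripts. As the samples are bulk RNA, fewer cells of a type and less RNA per cell cannot be told apart.

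Txnip was measured by probe A_44_P237621 (NM_001008767) and Arrdc4 by probe A_44_P1101101 (XM_006229368), each with a single spot per array. Both were well above background on 55 of 55 arrays, and 0 spots were marked as outliers. The processed signal, an intensity, ran from 27.9 to 7710 with a median of 1530 for Txnip and from 56.6 to 5250 with a median of 723 for Arrdc4. Below, a level is the log2 processed signal scaled to a common mean and spread within each array, on which the mean of an array's probes is 0 and a difference of 1 is a doubling of signal on an array of median spread. Levels of the 2 genes come from different probes and are not compared with each other. The SD of the level over the 55 arrays was 1.76 for Txnip and 1.08 for Arrdc4, the 99.7th and the 95th percentile among the probes tested, whose median SD was 0.49.

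As both genes answer to sequence-specific factors and moved together here, the promoter of Arrdc4 is shown, the gene of the pair that matched an entry in the RefSeq promoter table. The stretch ends at the base before the annotated start of the gene and covers 237 bases of the minus strand, GRCr8 chr1:131793439-131793675. Capitals mark CACGTG, the E-box read by many bHLH factors, and CCAAT, or its reverse complement ATTGG.

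Arrdc4: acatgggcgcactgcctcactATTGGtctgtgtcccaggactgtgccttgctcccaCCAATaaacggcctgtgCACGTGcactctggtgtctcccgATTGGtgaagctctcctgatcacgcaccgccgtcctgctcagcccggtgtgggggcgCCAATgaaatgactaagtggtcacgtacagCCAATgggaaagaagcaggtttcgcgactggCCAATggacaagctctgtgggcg

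The stretch held 1 CACGTG, from base 74 to base 79, and 6 CCAAT, 4 on the strand shown and 2 on the other, and none of these overlapped. On both strands, CACGTG was found in 5.29% of the first 237 bases of all 33469 entries of the table and CCAAT in 32.9%, while 6 or more CCAAT were found in 10 entries (0.0299%). The letters CACGNG repeated after 5 bases, TATAAA and GTAAACA were not in this window, and stood in 0.0239%, 12.5% and 3.05% of the entries. These matches describe letters and not bound sites.

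Txnip was higher at 8 h than at 0 h in every series and arm in which both were measured. In series B it stood at 0.34 in sham, −0.50 after 1 Hz and −0.68 after iTBS at 0 h, and at 3.28, 3.07 and 2.82 at 8 h. In series C the levels at 0 h were 3.49, 3.46 and 4.12 in the same order, and those at 8 h were 5.05, 4.95 and 5.11. In series D they were 3.81, 2.99 and 4.08 at 0 h, and 5.08, 4.34 and 4.84 at 8 h. In these 3 series no sham or stimulated array at 0 h reached the level of any array of its own series at 8 h. How many of all probes were separated in this way was not counted. Series A had no pair of these times in 1 arm, as its single array at 8 h, after 1 Hz, was at 1.94 and its sham and iTBS arrays at 0 h were at 1.97 and 1.76.

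The higher level of Txnip was still there at the later times. At 24 h Txnip was at 3.44 in sham and 3.50 after iTBS in series B, between 4.52 and 4.72 in series C, and between 5.06 and 5.71 in series D. At 48 h the lowest of 11 arrays was at 3.41, the median at 4.46 and the highest at 5.39, while the 11 sham and stimulated arrays at 0 h ran from −0.68 over a median of 2.99 to 4.12 (untreated cultures are described separately). The range of the arrays was thus wide at 0 h and narrower at 48 h, with an SD of 1.82 and 0.69. On the plot of levels by series, the curves of series A and B start low and approach those of series C and D.

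**Figure D1:**
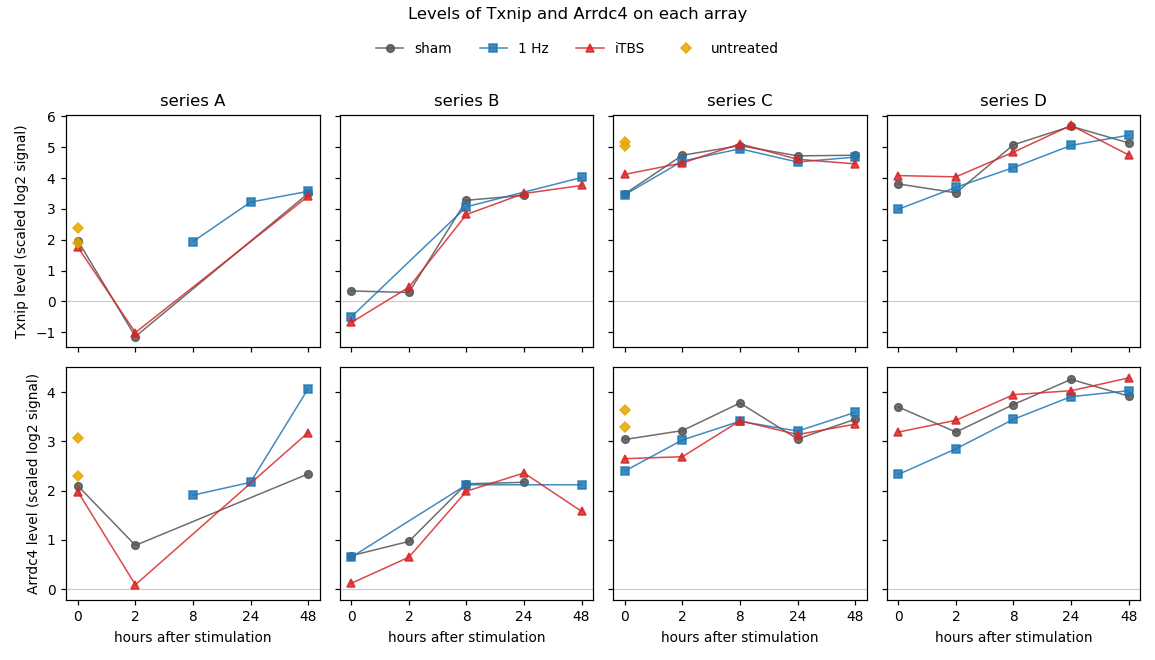
Level of Txnip (upper panels) and Arrdc4 (lower panels) on each of the 55 arrays, as scaled log2 signal, against the hours after stimulation, in a panel for each series. Points are single arrays, lines join arrays of 1 arm in time order across times that were not measured, and diamonds are untreated cultures. At the same series and time the 3 arms span a median of 0.51 for Txnip and 0.50 for Arrdc4, and up to 1.09 and 1.74. Series A and B start low and series C and D start high.

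Arrdc4 was also higher at 8 h than at 0 h in each series and arm with both times, by less. In series B its levels were 0.68 in sham, 0.65 after 1 Hz and 0.12 after iTBS at 0 h, and 2.14, 2.12 and 1.99 at 8 h. In series C they were 3.04, 2.40 and 2.65 at 0 h, and 3.78, 3.41 and 3.42 at 8 h. In series D they were 3.70, 2.33 and 3.19 at 0 h, and 3.75, 3.45 and 3.95 at 8 h. The sham and stimulated arrays of the 2 times did not overlap in series B and C and overlapped in series D, where sham at 0 h was already at 3.70. The share of all probes without such overlap was not counted. At 48 h the 11 arrays ran from 1.58 over a median of 3.45 to 4.29, and the 11 sham and stimulated arrays at 0 h from 0.12 over a median of 2.33 to 3.70.

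When arrays were matched by arm and series, the difference between 8 h and 0 h was +1.93 ± 1.09 for Txnip (SD, n = 9 pairs), 3.82-fold higher, and +1.02 ± 0.53 for Arrdc4 (SD, n = 9 pairs), 2.03-fold higher. Both genes were higher at 8 h in 9 of 9 pairs, by 0.76 to 3.58 and by 0.04 to 1.87. Of all probes tested, 3.35% were higher at 8 h in every pair, and the median difference was −0.01. No tested probe had a larger mean difference than Txnip, and 87 (0.244%) had a larger one than Arrdc4. As the pair was chosen for its time course, these shares only place it among the other probes. The difference was there in each arm, sham included: its mean was +1.92 ± 0.89 in sham, +2.13 ± 1.25 after 1 Hz and +1.74 ± 1.52 after iTBS for Txnip (SD, n = 3 pairs each), and +0.75 ± 0.71, +1.20 ± 0.24 and +1.13 ± 0.64 for Arrdc4.

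The later times stayed above 0 h in every pair, by 0.49 to 4.18 at 24 h and 0.34 to 4.52 at 48 h for Txnip. For Arrdc4 the pairs ran from 0.01 to 2.24 and from 0.22 to 1.69. The smallest, sham in series C at 24 h, was at 3.05 against 3.04 and thus hardly differed. Txnip was higher by 1.95 ± 1.19 at 24 h (SD, n = 8 pairs) and by 1.93 ± 1.45 at 48 h (SD, n = 10 pairs), and Arrdc4 by 1.00 ± 0.72 and 0.97 ± 0.54. Of all probes, 4.74% were higher in every pair at 24 h and 4.37% at 48 h. By arm, Arrdc4 differed at 48 h by +0.29 ± 0.11 in sham and +1.45 ± 0.25 after 1 Hz (SD, n = 3 pairs each). After iTBS it differed by +1.11 ± 0.31 (SD, n = 4 pairs). For Txnip these values were +1.37 ± 0.14, +2.71 ± 1.67 and +1.77 ± 1.86. The arms did not hold the same series in these pairs. From 2 h to 8 h both genes were higher in 8 of 8 pairs, by 1.21 ± 0.99 for Txnip and 0.73 ± 0.34 for Arrdc4, where 2.39% of all probes were higher in every pair. From 24 h to 48 h the differences were −0.07 ± 0.47 and +0.27 ± 0.77 (SD, n = 8 pairs), with 5 and 6 of 8 pairs higher, beside 1.42% of all probes higher in every pair.

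**Figure D2:**
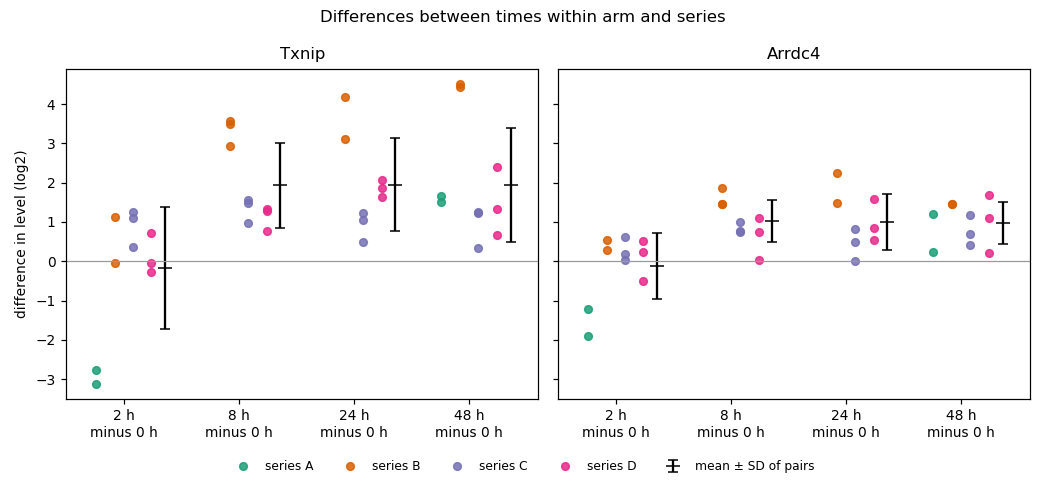
Difference in level (log2) between a later time and 0 h for Txnip (left) and Arrdc4 (right), where each point is a pair of arrays of the same arm and series, coloured by series, and the black bar gives the mean ± SD of the pairs. All pairs lie above 0 at 8, 24 and 48 h, for Arrdc4 by as little as 0.04, 0.01 and 0.22. Those of series B are highest at 8 h, and the pairs of series A lie far below 0 at 2 h.

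The first 2 h gave no common direction. Between 0 h and 2 h the difference was −0.17 ± 1.56 for Txnip (SD, n = 10 pairs), with 5 of 10 pairs higher, and −0.12 ± 0.83 for Arrdc4, with 7 of 10 higher, where 0.336% of all probes were higher in every pair. In series A both genes were lower at 2 h, Txnip at −1.14 against 1.97 in sham and at −1.01 against 1.76 after iTBS, and Arrdc4 at 0.89 against 2.10 and at 0.09 against 1.98. The 2 arrays at 2 h held the lowest Txnip levels of all 55. In series C both genes were higher at 2 h in 3 of 3 pairs, by a mean of 0.90 for Txnip and 0.28 for Arrdc4. Without series A the mean difference at 2 h was +0.52 ± 0.61 for Txnip and +0.24 ± 0.36 for Arrdc4 (SD, n = 8 pairs).

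Much of the spread of both genes lay between series. At the same arm and time, Txnip was higher in series C than in series B by 2.51 ± 1.51 and in series D than in series B by 2.54 ± 1.15 (SD, n = 12 pairs, 12 of 12 higher in each). Series C and D were also above series A in 10 of 10 and 9 of 9 pairs, by 2.60 ± 1.79 and 2.55 ± 1.35. Series D and C differed by 0.03 ± 0.67 (n = 15 pairs, 8 higher) and series A and B by −0.11 ± 1.55 (n = 7 pairs, 2 higher), both less than the spread of the pairs. The order of the series was thus C and D above A and B, while neither C and D nor A and B differed beyond the spread of their pairs. The pair was chosen with its differences between series known, and the share of all probes separated in this way was not counted. These counts therefore only describe the gene.

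For Arrdc4 the corresponding differences were 1.68 ± 0.55 for C over B and 2.17 ± 0.59 for D over B (12 of 12 pairs each), 1.07 ± 0.92 for C over A (9 of 10) and 1.60 ± 0.91 for D over A (8 of 9). Series D was above series C by 0.46 ± 0.42 (11 of 15 pairs). In the stimulated and sham arrays, series accounted for 51.7% of the sum of squares of Txnip, time for 28.6%, their combination for 18.1% and the protocol, with its combination with time, for 0.0497% and 0.574%. For Arrdc4 these shares were 61.4%, 21.4%, 10.3%, 0.454% and 2.73%. Neither these shares nor the counts of pairs were set beside those of all probes. The mean level of the 8 oligodendrocyte markers also differed between series, at 3.40 in A, 4.41 in B, 5.37 in C and 2.52 in D. That of the 6 microglial markers was 0.29 in A, −0.86 in B, −0.99 in C and −0.16 in D. The astrocyte markers lay between 6.15 and 6.55 and the neuronal markers between 4.88 and 5.51. Their part in the result was not tested.

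The size of the difference between 8 h and 0 h also varied with the series. For Txnip it was 3.34 ± 0.35 in series B, 1.34 ± 0.31 in series C and 1.12 ± 0.32 in series D (SD, n = 3 pairs each), and for Arrdc4 1.60 ± 0.23, 0.84 ± 0.15 and 0.64 ± 0.54. Of these 3 series, the one lowest at 0 h thus had the largest difference, and its Txnip levels at 8 h were still below those of series C at 0 h in 3 of 3 arms. From 8 h to 24 h both genes were lower in series C in 3 of 3 arms and higher in series B and D in every pair. Over all 9 pairs of these times 6 were higher for each gene, and 3.28% of all probes were higher in all 9.

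No difference between a protocol and sham passed the test for either gene. Each protocol was compared with sham, and the protocols with each other, at 5 times, and untreated with sham at 0 h, 16 tests for each gene, fitted with limma over all probes with Benjamini-Hochberg adjustment. Of these 32 tests 0 passed at an adjusted p under 0.05, 0 had an unadjusted p under 0.05, and every adjusted p was 1. In the same comparisons between 0 and 0.0056% of all probes passed. The fitted log2 differences ran from −2.13 to +2.27 for Txnip, with standard errors of 1.14 to 1.40, and from −1.23 to +0.87 for Arrdc4, with standard errors of 0.74 to 0.90. Nor did the test of whether the difference from sham varied over the times pass for either gene or protocol (limma, adjusted p of 1 in each case), with 0% of all probes passing. These fits did not include series, so their standard errors hold the differences between series. With series at each time as a term, 0 of 32 tests passed and 5 had an unadjusted p under 0.05 (limma), with standard errors of 0.21 to 0.31. The test over the times then gave Arrdc4 after 1 Hz an unadjusted p of 0.0159 (limma, adjusted 0.742). For these tests with series at each time, the share of all probes that passed was not counted. Nor was the share with an unadjusted p under 0.05, so the 5 of 32 cannot be placed among all probes.

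The largest fitted differences, at 2 h, came with an unequal mix of series. Txnip was at 4.55 and 3.70 after 1 Hz at 2 h, in series C and D, and at 4.74, 3.52, 0.29 and −1.14 in sham, in series C, D, B and A. The fitted difference was +2.27 ± 1.40 (SE) against sham for Txnip and +0.87 ± 0.90 for Arrdc4, and −2.13 ± 1.40 and −1.23 ± 0.90 for iTBS against 1 Hz. Within series C and D the 1 Hz array differed from sham by −0.19 and +0.18 for Txnip and by −0.19 and −0.34 for Arrdc4.

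Compared within series and time, arrays of the 3 arms mostly lay closer together than arrays of different series. The range over the arms had a median of 0.51 for Txnip (0.16 to 1.09) and 0.50 for Arrdc4 (0.15 to 1.74) over 13 sets of series and time. The 1 Hz arrays differed from their sham arrays by −0.25 ± 0.38 for Txnip (SD, n = 13 pairs, 3 higher) and by −0.11 ± 0.69 for Arrdc4 (4 of 13 higher), and iTBS arrays by −0.07 ± 0.38 (n = 17 pairs, 8 higher) and −0.13 ± 0.41 (6 of 17 higher). By time, Txnip after 1 Hz differed from sham by −0.56 ± 0.46 at 0 h, −0.35 ± 0.34 at 8 h and +0.09 ± 0.15 at 48 h (SD, n = 3 pairs each). At 2 h and 24 h it differed by −0.01 ± 0.26 and −0.41 ± 0.30 (SD, n = 2 pairs each). With series at each time as a term in the fit and the 5 times averaged, an analysis added after the data were seen, the difference of Txnip after 1 Hz was −0.27 ± 0.11 (SE), with an unadjusted p of 0.0253 and an adjusted p of 1 (limma), and 0 of 35707 probes (0%) passed. The widest single gap was that of Arrdc4 at 48 h in series A, at 4.07 after 1 Hz, 3.18 after iTBS and 2.34 in sham. In series C and D the 1 Hz array at 48 h differed from sham by +0.14 and +0.10 for Arrdc4. With series at each time as a term in the fit, this difference at 48 h was +0.69 ± 0.26 (SE, limma unadjusted p of 0.0124, adjusted 0.242).

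**Figure D3:**
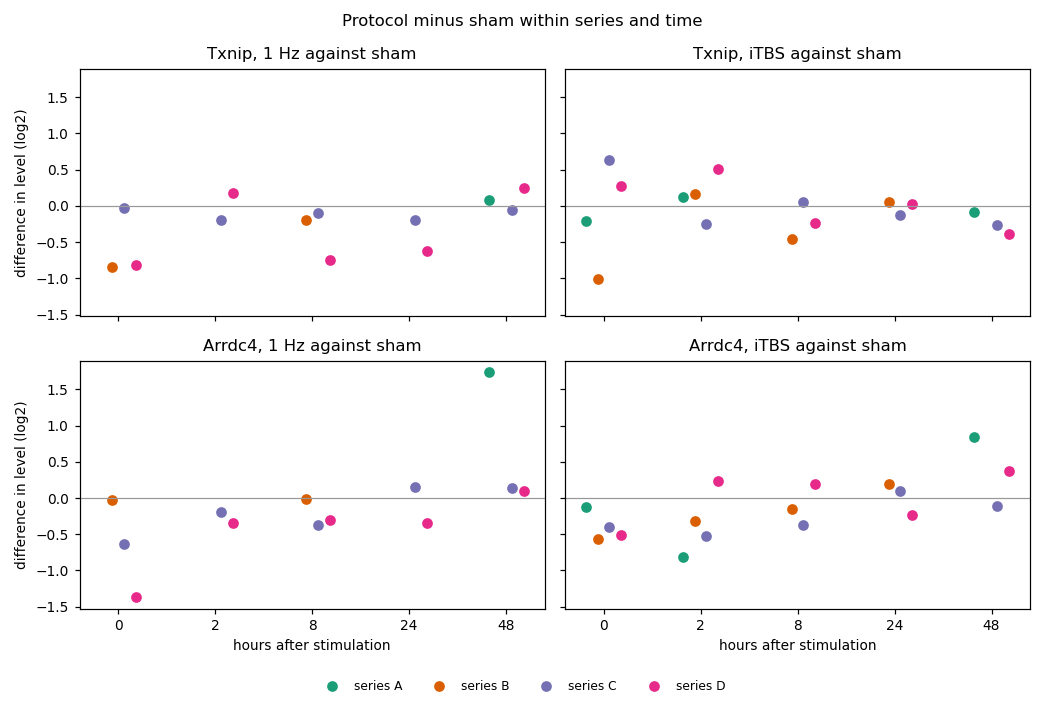
Difference in level (log2) between a stimulated array and the sham array of the same series and time, for 1 Hz (left) and iTBS (right), for Txnip (upper panels) and Arrdc4 (lower panels), against the hours after stimulation. Points lie on both sides of 0 in all 4 panels, within −1.37 and +1.74.

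Untreated cultures were measured in series A and C at 0 h. Txnip was at 2.37 and 1.89 in series A, beside 1.97 in sham, and at 5.05 and 5.18 in series C, beside 3.49 in sham, 3.46 after 1 Hz and 4.12 after iTBS. Both untreated arrays of series C were thus above the 3 handled arrays of that series at 0 h and at or above the lower end of its arrays at 8 h. Arrdc4 was at 3.07 and 2.29 in series A, beside 2.10 in sham, and at 3.63 and 3.30 in series C, beside 3.04, 2.40 and 2.65. The fitted difference from sham was +1.22 ± 1.14 (SE) for Txnip and +0.69 ± 0.74 for Arrdc4 and did not pass (limma adjusted p of 1 for both), where 0.0028% of all probes passed. Leaving out each array of these groups in turn moved the values between 0.53 and 1.80 for Txnip and between 0.12 and 1.13 for Arrdc4, the lowest of both without sham replicate 1. The untreated arrays came from series A and C alone, while sham held all 4 series. With series at each time as a term in the fit, Txnip differed by +0.74 ± 0.23 (SE). Its unadjusted p of 0.00279 was the lowest of that fit (limma, adjusted 0.259). Arrdc4 differed by +0.43 ± 0.25 (limma unadjusted p of 0.0973, adjusted 0.798).

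Arrays with a high level of Txnip mostly had a high level of Arrdc4. Within the series Pearson's r was 0.863 in A (n = 11 arrays), 0.941 in B (n = 12), 0.731 in C (n = 17) and 0.873 in D (n = 15), and within the times it ran from 0.573 at 48 h to 0.977 at 24 h. After the mean of each series and time was subtracted, r was 0.376 over 51 stimulated and sham arrays (Spearman's rho 0.373). These values describe arrays that share series and time, and the genes were chosen as a pair.

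**Figure D4:**
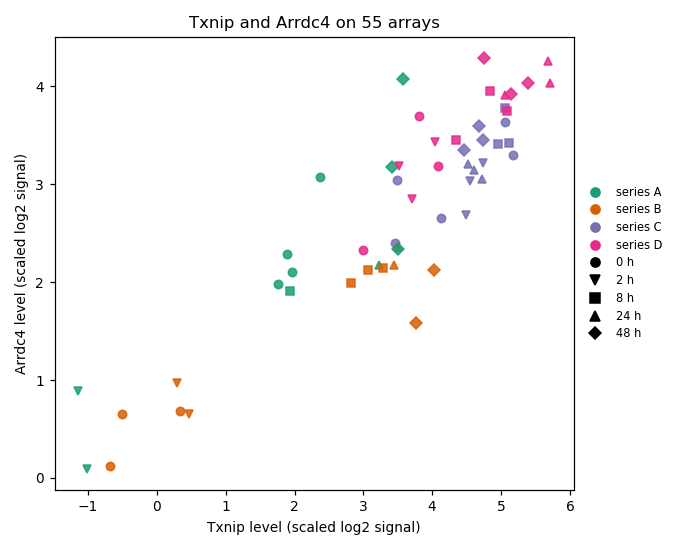
Level of Arrdc4 against that of Txnip, both as scaled log2 signal, on each of the 55 arrays, with colour for the series and shape for the time. Arrays of series B at 0 and 2 h and of series A at 2 h lie at the lower left, and those of series C and D at 8, 24 and 48 h at the upper right.

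Other genes with a pattern like theirs were ranked by Pearson's r over the 55 arrays after subtracting series means. Arrdc4 was the 5th of 13894 genes for Txnip (r 0.866) and Txnip the 8th for Arrdc4. Above Arrdc4 stood Mrm2, which encodes a mitochondrial RNA methyltransferase (r 0.878), Tln1, which encodes the integrin adaptor talin (0.872), Eva1b (0.871) and Nhlrc1, which encodes the ubiquitin ligase malin of glycogen metabolism (0.869). Below it came Mavs, an adaptor of RNA sensing (0.864), Fubp1 (0.858), Lrtm2 (0.858), Taf8, a subunit of the general transcription factor TFIID (0.853), and Ccdc93 (0.847). From 0 h to 8 h the mean matched differences of these genes, leaving Arrdc4 aside, ran from 0.37 for Taf8 to 0.80 for Nhlrc1.

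For Arrdc4 the order was Aida (0.924), Spata7 (0.903), Parp16 (0.892), Nme6 (0.877), Sirt4, a mitochondrial sirtuin (0.870), Efcab7 (0.868), Bbs10 (0.867), Txnip, Med8, a Mediator subunit (0.864), and Mrm2 (0.860). Beside the pair itself, Mrm2 was the 1 gene on both lists of 10. Their mean differences from 0 h to 8 h ran from 0.31 for Efcab7 to 0.75 for Parp16, leaving Txnip aside.

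The genes that ran most against Txnip were Ccn1, a secreted matrix protein gene of the immediate early class (r −0.890), Pcdh8, an activity-regulated protocadherin gene (−0.890), Iqcf1 (−0.855), the orphan nuclear receptor gene Nr4a2 (−0.855) and the chemokine receptor gene Cxcr4 (−0.830). Ccn1 was lower at 8 h than at 0 h in 9 of 9 pairs, by a mean of −1.46, where 2.19% of all probes were lower in every pair, and by −1.99 at 48 h, and Nr4a2 by −0.79 and −1.06. Against Arrdc4 ran Nr4a2 (−0.828), Nr4a3 of the same family (−0.818), Mtx1 (−0.784), Rgs2, a regulator of G protein signalling (−0.783), and Lrfn4 (−0.766). Nr4a2 was the gene shared by both lists of 5.

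The other genes of the pathway were described from lists chosen with earlier results known, and the medians of the 8 lists between 8 h and 0 h ran from −0.08 to +0.28. Of the transcription factors that sense glucose or share their E-box, 10 of 12 were tested. Mlxip and Mxd4 could not be matched on the array by symbol. ChREBP (Mlxipl), at a low level of −2.08, differed by −0.21 ± 0.81 between 8 h and 0 h (SD, n = 9 pairs) and Mnt by −0.10 ± 0.17, while Max differed by +0.20 ± 0.47 and Mga by +0.17 ± 0.28. The median of the 10 was +0.10, and 0 were higher or lower in every pair, beside a median of −0.01 over all probes.

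Among 15 of 17 other targets of the Mondo factors that were tested, the largest difference was that of Arrdc3, an alpha-arrestin that acts on adrenergic receptors, at +0.92 ± 0.65 (8 of 9 pairs higher) at 8 h and −0.17 at 48 h. Fgf21, a metabolic hormone gene, followed with +0.59 ± 0.51 (8 of 9 pairs) at 8 h and +1.14 at 48 h. Pklr, the liver pyruvate kinase gene, differed by −0.22 ± 1.48 at a level near background and Acaca, which encodes acetyl-CoA carboxylase, by −0.19 ± 0.47. The median of the 15 was 0, and 0 were higher in every pair. Within the alpha-arrestins, where 3 of 4 genes were tested and the median was +0.28 at 8 h and −0.17 at 48 h, Arrdc1 stood at +0.28 ± 0.26 at 8 h (8 of 9 pairs) and Arrdc2 at +0.20 ± 0.69. Arrdc5 was not tested.

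The 10 genes of the thioredoxin system had a median of −0.08, from Prdx1 (−0.15 ± 0.20) and Prdx2 (−0.15 ± 0.46), which encode peroxiredoxins, to thioredoxin reductase Txnrd1 (+0.34 ± 0.52), with Msrb1 second highest at −0.01 ± 0.15. The 8 glucose transporters had a median of +0.05. Of these Slc2a8 was higher in 9 of 9 pairs (+0.34 ± 0.37), beside 3.35% of all probes. Slc2a6 stood at +0.50 ± 0.49 (7 of 9), and Slc2a10 (−0.51 ± 1.35) and Slc2a4 (−0.13 ± 1.44), both at low levels, varied widely. Among 5 of 7 NEDD4-family ligases and partners that were tested, with a median of +0.15 at 8 h and +0.22 at 48 h, Itch was at +0.35 ± 0.79 and Wwp1 at +0.26 ± 0.39 (8 of 9), and Ddit4 and Wwp2 at +0.02 ± 0.62 and +0.09 ± 0.18.

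The 23 genes of glycolysis and its exit had a median of +0.01 at 8 h and +0.06 at 48 h. Pfkp (+0.16 ± 0.23) and Pgam1 (+0.11 ± 0.31) were highest at 8 h, and Pdk1, a kinase of pyruvate dehydrogenase (−0.27 ± 0.27), and the hexokinase gene Hk2 (−0.21 ± 0.45) lowest. Single genes of the list differed more at 48 h, Hk2 by −1.24, Pdk2 by +1.22 and Pdk4, at a low level of −4.36, by +1.35. Pdk2 and Pdk4 were higher at 48 h in 10 of 10 pairs, beside 4.37% of all probes. AMP-activated kinase targets Txnip for degradation. Of the 7 genes listed for it, its subunits and an upstream kinase, Prkab1 was lower at 8 h in 9 of 9 pairs. Its difference was −0.22 ± 0.11, and 2.19% of all probes were lower in every pair. Prkaa1 stood at −0.08 ± 0.13, and Prkag2 and Prkag1 at +0.28 ± 0.39 and +0.16 ± 0.20, and the median of the 7 was −0.01. In the tests of the protocols and of untreated cultures 0 members of any of these 8 lists passed.

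Of the 7 astrocyte markers, Gfap, Aqp4, S100b and Gja1 were higher at 48 h than at 0 h in 10 of 10 pairs and Slc1a2 in 9, while Slc1a3 was higher in 6 (mean +0.23) and Aldh1l1 in 4 (mean −0.18). Of all probes, 4.37% were higher at 48 h in every pair. The mean level of the 7 markers was 6.21 in the 0 h arrays, 6.17 in those of 8 h and 6.87 in those of 48 h. Their median matched difference was −0.11 at 8 h and +0.71 at 48 h. Gfap, the astrocyte filament gene, was higher in 9 of 9 pairs at 8 h (+0.57 ± 0.65), beside 3.35% of all probes, and by 1.69 at 48 h. Slc1a3 was next at 8 h (−0.04 ± 0.45), and S100b (−0.20 ± 0.33) and Gja1 (−0.22 ± 0.35) were lowest. The mean of the 10 neuronal markers lay between 5.0 and 5.33 at all times, with medians of −0.07 and −0.02, that of the 8 oligodendrocyte markers between 3.76 and 4.24, and that of the 6 microglial markers between −0.67 and −0.28. Of the 4 endothelial markers none was well above background on every array. The part of these markers in the levels of Txnip and Arrdc4 was not tested.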

How the data were processed

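The authors scanned 56 one-colour arrays and extracted them with Agilent Feature Extraction 12.0.3.1 (grid build rn4, from the file headers). The deposited scanner files hold background-corrected intensities, not normalized between arrays, and flags of the software per spot. The deposited score of each probe is a z-score of log10 intensity within an array, made by the authors. Here the log2 intensity was averaged over the spots of a probe without outlier spots, converted to z-scores within each array and multiplied by the median array SD, 4.06. Probes missing on an array (420) or well above background on fewer than 3 arrays (9471) were not tested, which left 35707. Group means were fitted to 55 arrays with limma 3.58.1 in R 4.3.3 (39 residual and 2.82 prior degrees of freedom), with two-sided tests and Benjamini-Hochberg adjustment over all probes tested, and the script was tested on simulated data. The number of arrays limits the precision. Symbols came from RefSeq (GRCr8) by accession, and coordinates are given for the promoter entry alone, on GRCr8, as the array's build differs.

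The members and lists were chosen with earlier results of these data known. By the rule for names, the text names both genes, the 10 genes most like and the 5 most unlike each, list members that passed a test and, of each pathway list and the astrocyte markers, the 2 with the largest and the 2 with the smallest mean difference between 8 h and 0 h. Mlxip, Mxd4 and Arrdc5 were named beyond it, and so were Aqp4, Slc1a2, Aldh1l1, Pdk2 and Pdk4, after their values were seen. The deviations of 2 arrays from their own groups had a mean r of 0.16 where the title number was the same (373 pairs, lowest −0.462), of −0.0558 where it was not, and of 0.398 within a series (lowest −0.0166). Between different series it was −0.134, and within the same series and time 0.497 (lowest 0.0607). Neither the title number nor the series was taken as a pairing in the main fit, so its standard errors hold the differences between series.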

Additional observations from a re-analysis of the deposited data

Results flagged for a closer look

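The change of both genes between 0 h and 2 h ran in opposite directions in different series. Txnip was lower at 2 h in both pairs of series A (mean −2.94, from −3.11 to −2.77) and higher in the 3 pairs of series C (mean 0.90, from 0.37 to 1.25). Arrdc4 was lower in both pairs of series A (mean −1.55) and higher in both pairs of series B (mean 0.41) and in the 3 pairs of series C (mean 0.28). These differences between series were not tested.

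From 8 h to 24 h Txnip was lower in the 3 pairs of series C (mean −0.41) and higher in both pairs of series B (mean 0.42) and in the 3 of series D (mean 0.73). Arrdc4 was lower in the 3 pairs of series C (mean −0.40) and higher in both pairs of series B (mean 0.20) and in the 3 of series D (mean 0.35). These differences were not tested either. In the 16 sets of a gene and a group with 4 arrays, 0 arrays lay far from the others by the Dixon ratio.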

How the results depend on the processing

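The count of tests that passed was 0 of 32 under each of 11 other settings and without each array in turn, and the positive differences at 8, 24 and 48 h kept their sign under the other scalings. Leaving out a series could not change that sign, as every pair was higher. The array added back in the set of 56 was at 2 h, so it formed no pair for these times. The difference of Txnip at 2 h, −0.17, was 0.04 after normexp. Without series B its difference from 0 h was +1.23 at 8 h, +1.39 at 24 h and +1.30 at 48 h, against +1.93, +1.95 and +1.93. Of 352 differences from sham or between protocols recomputed under other settings, 26 changed sign, with sizes up to 0.90, and of 220 with an array left out 52 did, with sizes up to 0.92. The smallest adjusted p, 0.0669, came with all 56 arrays. In the fit with the series at each time as a replicate block, which does not rest on a pairing given by the labels, 0 of 32 passed, 5 had an unadjusted p under 0.05, and the changes ran from −0.67 to +0.74 with standard errors of 0.21 to 0.31, where the change at 2 h of 1 Hz against sham was 0.00 for Txnip and −0.37 for Arrdc4, and that of iTBS against 1 Hz was 0.14 and 0.02. With the title number or the series as the block 0 passed as well. The share of all probes with an unadjusted p under 0.05 was not counted in these fits. With all 56 arrays Arrdc4 changed by −0.90 for 1 Hz against sham and by 0.55 for iTBS against 1 Hz at 2 h. Without the block, the change of Txnip after 1 Hz averaged over times was 0.12, against −0.27 with it. Leaving out an array moved the change of Txnip at 2 h after 1 Hz between 1.27 and 3.23. The files held median but not mean raw signals, so normexp was run on medians, and as each gene has a single probe, no other probe could be tried. The causes were not tested.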
